A study of Rattus norvegicus with 6 samples.

Results

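Genes of MHC class II antigen presentation were followed through the series: Cd74 (ENSRNOG00000018735), RT1-Da (ENSRNOG00000032844) and RT1-Ba (ENSRNOG00000000451). They were picked out by identifier, with no threshold on their values, though earlier results of these data were known when they were proposed. They are 3 of the 33692 features in the count tables. All 3 passed the filter on low counts, together with 15494 other features. The tables hold identifiers without gene symbols, so the pairing of these 3 identifiers with their symbols comes from the choice of genes and was not checked against an annotation. The series holds RNA sequencing libraries of rat back skin, 3 of vehicle-treated and 3 of afatinib-treated skin. Afatinib is a kinase inhibitor that binds EGFR and the related ErbB receptors covalently. The dose, the length of treatment and the strain, sex and age of the rats are not given in the labels. The labels do not say that the libraries came from separate animals, so the spread between them may be partly technical.

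MHC class II molecules are pairs of an alpha and a beta chain that carry peptides from endosomes to the cell surface, where CD4+ T cells read them. In skin they are known chiefly from Langerhans cells, dermal dendritic cells and macrophages, and keratinocytes can acquire them under interferon gamma. RT1 is the name of the rat MHC. RT1-Da encodes the alpha chain of the RT1-D molecule, the counterpart of HLA-DR in humans. RT1-Ba encodes the alpha chain of the RT1-B molecule, the counterpart of HLA-DQ. Cd74 encodes the invariant chain, which fills the peptide groove of newly made class II molecules and guides them to endosomes. The genes are known to share a promoter architecture, the X and Y boxes, on which RFX, CREB and NF-Y assemble and recruit the coactivator CIITA.

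The promoters are shown because the 3 genes are known to share this architecture. All 3 symbols had an entry in the RefSeq promoter table (assembly GRCr8, plus strand for each), and the bases before the annotated start of each gene are printed 5′ to 3′. Cd74 lies on chromosome 18 from 56527071 to 56536406. RT1-Da lies on chromosome 20 from 4515393 to 4520387, and RT1-Ba on the same chromosome from 4577057 to 4581650. The printed stretches are chr18:56526956-56527070, chr20:4515165-4515392 and chr20:4576807-4577056, in this order. Capitals mark matches to ATTGG (the core of the Y box, CCAAT on the other strand), CCTAGNAAC (an X box), GCAAC (part of the X box) and TGACGTCA (a cyclic AMP response element, the kind of site that CREB binds), searched on both strands. CCTAGNAAC can overlap GCAAC. The motifs, and the distance used for a pair of them, were chosen after the sequences had been read.
Cd74: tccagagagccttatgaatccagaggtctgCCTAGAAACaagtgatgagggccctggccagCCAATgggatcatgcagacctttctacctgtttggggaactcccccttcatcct
RT1-Da: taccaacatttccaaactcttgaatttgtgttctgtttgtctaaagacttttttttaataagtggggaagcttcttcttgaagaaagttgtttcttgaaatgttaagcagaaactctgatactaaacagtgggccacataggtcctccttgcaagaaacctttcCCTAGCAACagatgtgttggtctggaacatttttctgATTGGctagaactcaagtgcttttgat
RT1-Ba: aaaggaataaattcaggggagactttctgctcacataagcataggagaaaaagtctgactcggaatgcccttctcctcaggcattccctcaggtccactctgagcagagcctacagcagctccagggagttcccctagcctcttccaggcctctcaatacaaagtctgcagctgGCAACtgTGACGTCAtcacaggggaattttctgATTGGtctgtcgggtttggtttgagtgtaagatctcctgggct

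Each promoter held 1 match to the Y box core. It began 27 bases before the gene start in RT1-Da and 43 bases before it in RT1-Ba, and in Cd74 it lay on the other strand, 54 bases before the start. A match to CCTAGNAAC stood upstream of it in RT1-Da (64 bases before the start) and in Cd74 (85 bases before the start). RT1-Ba had none, but held GCAAC 76 bases and TGACGTCA 69 bases before its start. In RT1-Da and RT1-Ba, the distance from the start of GCAAC to the start of ATTGG was the same, 33 bases. Over the 250 bases upstream in the table's 33469 promoters, ATTGG was found in 34.0%, GCAAC in 29.5%, TGACGTCA in 1.59% and CCTAGNAAC in 1.26%. GCAAC followed by ATTGG on the gene's strand at a distance of 25 to 40 bases was found in 0.26%. These matches describe the letters of the reference genome. The count data do not measure binding at them.

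The libraries held between 15304166 and 18494281 counts. Afatinib replicate 3 stood apart from the other afatinib libraries: across the tested features its log2 CPM (counts divided by the scaled library total) had a mean correlation of 0.954 with the vehicle libraries and of 0.926 with the other afatinib libraries, and on the first principal component (60.2% of the variance) its score of -17.7 lay within the vehicle range of -86.6 to -12.5. The fold changes, the ratios and the numbers of calls are therefore also given without it. The labelled tissue could not be checked against marker genes, because none of the 87 symbols written down for class II genes, their regulators and the cell types of skin could be paired with a further feature. The classes of skin cells that carried the class II transcripts are thus not resolved. In whole skin, a change in the number of cells and a change in RNA per cell cannot be told apart.

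No difference between afatinib-treated and vehicle-treated skin was detected for any of the 3 genes, and the groups overlapped in each. Of the 3 genes, 0 met the threshold of an adjusted p under 0.05 in the edgeR quasi-likelihood test, where 0 of all 15497 features (0%) did. At an unadjusted p under 0.05 the count was again 0 of 3, against 3023 features (19.5%). In DESeq2, 0 of 3 passed the adjusted threshold, against 1032 of 15220 features (6.78%). Without afatinib replicate 3, 0 of 3 passed in either tool, against 1627 of 16014 features (10.2%) in edgeR and 4085 of 16338 (25%) in DESeq2. That library was left out because it resembled vehicle, which favours higher shares. Groups that did not overlap were seen in 0 of 3 genes, against 26.2% of the tested features.

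Cd74, the invariant chain, was read at 781, 1051 and 1004 CPM in vehicle replicates 1, 2 and 3, on library sizes scaled by TMM (trimmed mean of M values). In afatinib replicates 1, 2 and 3 it was read at 801, 1379 and 1056 CPM. Afatinib replicate 2 was the highest of the 6 libraries, afatinib replicate 1 was close to the lowest vehicle library, and afatinib replicate 3 was close to the highest vehicle library. The group means were 945 ± 144 CPM in vehicle and 1079 ± 290 CPM in afatinib (SD, n = 3 each). The log2 fold change was 0.19 with a standard error of 0.26 (adjusted p = 0.692, edgeR quasi-likelihood test). The 95% interval from limma voom ran from a 0.73-fold to a 1.71-fold level. Without afatinib replicate 2 the log2 fold change was -0.02, and without afatinib replicate 3 it was 0.20, so the higher afatinib mean rested on replicate 2.

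RT1-Da, the alpha chain of the HLA-DR counterpart, was read at 272, 342 and 331 CPM in vehicle replicates 1, 2 and 3. In afatinib replicates 1, 2 and 3 it was read at 309, 493 and 355 CPM. Afatinib replicates 2 and 3 lay above every vehicle library, while afatinib replicate 1 lay inside the vehicle range. This placement depended on the scaling: as CPM of the raw totals, RT1-Da stood at 342 in afatinib replicate 1 and at 324 in afatinib replicate 3, and the highest vehicle library at 331. The group means were 314.9 ± 37.9 CPM in vehicle and 385.6 ± 95.6 CPM in afatinib (SD, n = 3 each). The log2 fold change was 0.29 with a standard error of 0.22 (adjusted p = 0.469, edgeR quasi-likelihood test). The 95% interval from limma voom ran from 0.841-fold to 1.72-fold. Leaving out afatinib replicate 2 lowered the log2 fold change to 0.08, and leaving out afatinib replicate 1 raised it to 0.43, without a pass in either case (adjusted p = 0.873 and 0.477, edgeR). Without afatinib replicate 3 it was 0.34.

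RT1-Ba, the alpha chain of the HLA-DQ counterpart, was read at 29.6, 34.1 and 39.4 CPM in vehicle replicates 1, 2 and 3. In afatinib replicates 1, 2 and 3 it was read at 15.5, 44.8 and 31.9 CPM. The afatinib libraries thus held both the lowest and the highest value of the 6. The group means were 34.4 ± 4.90 CPM in vehicle and 30.8 ± 14.7 CPM in afatinib (SD, n = 3 each). The log2 fold change was -0.16 with a standard error of 0.37 (adjusted p = 0.816, edgeR quasi-likelihood test), and the 95% interval from limma voom ran from 0.44-fold to 1.55-fold. The sign depended on 1 library: without afatinib replicate 1 the log2 fold change was 0.16, without afatinib replicate 2 it was -0.53, and without afatinib replicate 3 it was -0.19.

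**Figure D1:**
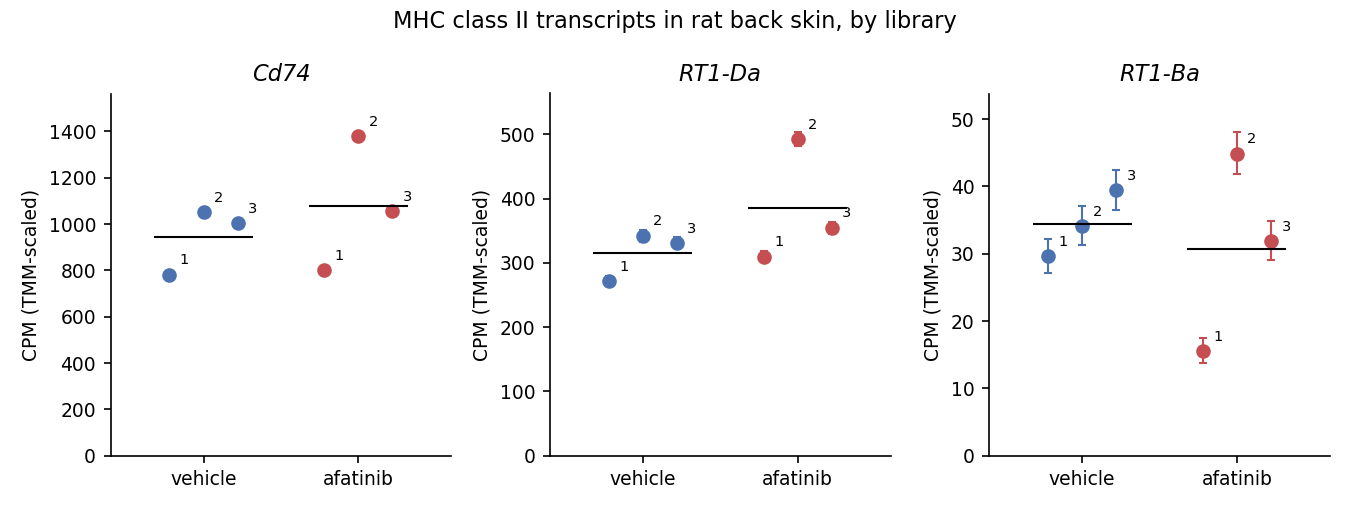
Level of each gene in CPM on TMM-scaled library sizes (y axis, from 0) in the 3 vehicle and 3 afatinib libraries. Numbers are replicates, black lines group means and bars exact Poisson 95% intervals, which cover counting error only. In each panel the groups overlap, and afatinib replicate 2 is the highest library.

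**Figure D2:**
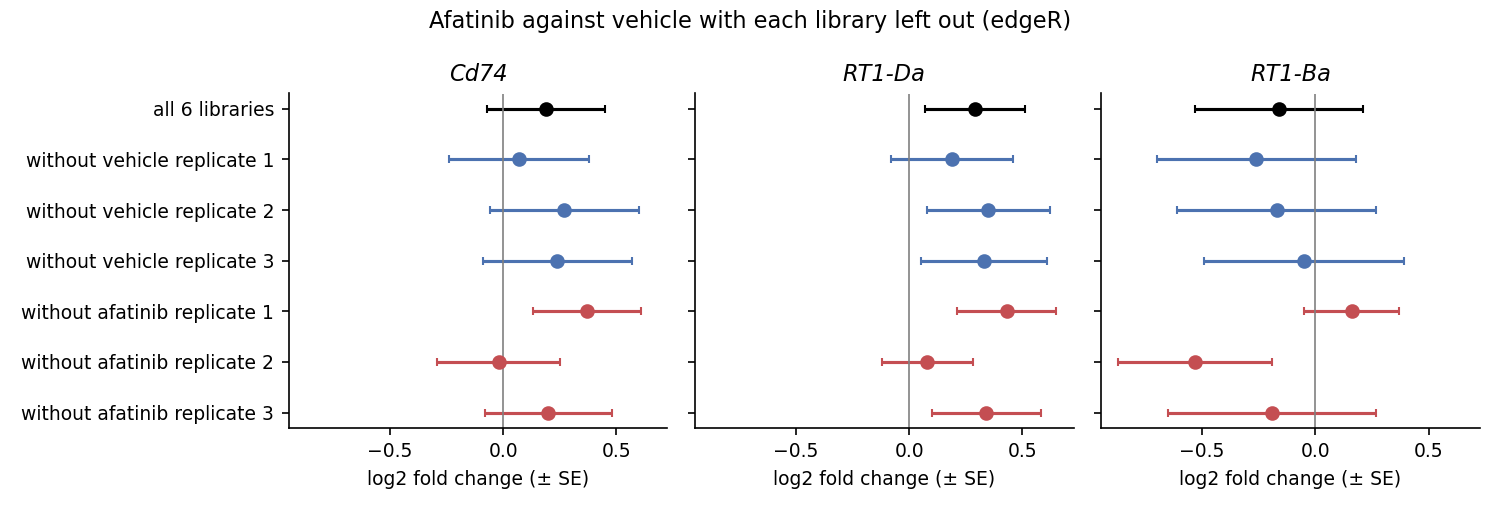
Log2 fold change of afatinib against vehicle (x axis, edgeR, bars 1 standard error) with all 6 libraries and with each library left out. The value for Cd74 falls to -0.02 without afatinib replicate 2, and that for RT1-Ba turns from -0.16 to 0.16 without afatinib replicate 1.

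The changes were ordinary in size among all features. The absolute log2 fold change of Cd74 exceeded that of 31.9% of the tested features, that of RT1-Da 46.3% and that of RT1-Ba 27.1%. The median absolute log2 fold change of all features was 0.32, above each of the 3 genes, and their median signed change was 0.00.

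**Figure D3:**
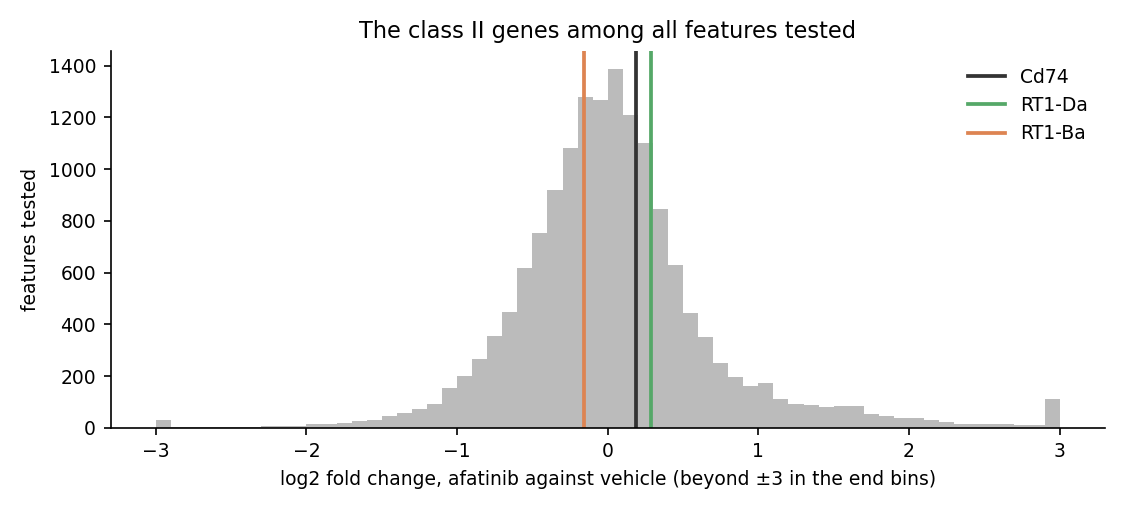
Number of tested features (y axis) by log2 fold change of afatinib against vehicle (x axis, bins of 0.1), with the 3 genes as vertical lines. The lines at -0.16, 0.19 and 0.29 stand within the central bulk of the distribution.

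What set the precision was the spread between libraries, not the counting of reads. Between 13572 and 24889 reads were counted for Cd74 in a library, between 4843 and 8893 for RT1-Da and between 263 and 809 for RT1-Ba. Counting error alone corresponds to a coefficient of variation of at most 0.858% for Cd74, 1.44% for RT1-Da and 6.17% for RT1-Ba. The observed coefficient of variation of CPM between vehicle libraries was 15.3% for Cd74, 12.0% for RT1-Da and 14.3% for RT1-Ba. Between afatinib libraries it was 26.9%, 24.8% and 47.8%, in the same order. On the log2 scale, the SD of RT1-Ba between afatinib libraries was 0.78, against 0.21 between vehicle libraries. The medians over all tested features were 0.30 and 0.22. Whether the spread differed between the groups was not tested.

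On TMM-scaled values, the 6 libraries ranked identically for Cd74 and RT1-Da, with vehicle replicate 1 lowest, then afatinib replicate 1, vehicle replicates 3 and 2, afatinib replicate 3 and afatinib replicate 2. Over the 6 libraries, log2 CPM of RT1-Da and Cd74 correlated with a Pearson r of 0.95 (two-sided exact permutation p = 0.00139, adjusted p = 0.00417 over the 3 pairs by Benjamini-Hochberg) and a Spearman rho of 1.00 (exact permutation p = 0.00278, adjusted p = 0.00834). Without vehicle replicate 1 and afatinib replicate 2, the libraries farthest from the median of Cd74, r was 0.94. The common order was lost on CPM of the raw totals, a scaling added after seeing the data. There, r was 0.97 (two-sided exact permutation p = 0.0236, adjusted p = 0.0708) and rho 0.66 (exact permutation p = 0.175, adjusted p = 0.262), and without the same 2 libraries r was -0.44. On that scale the relation thus rested on vehicle replicate 1 and afatinib replicate 2. Among 11665 features with a mean of at least 5 CPM, RT1-Da ranked 5 by its r with Cd74 on the TMM scale. Thus 0.0429% of these features, RT1-Da itself included, followed Cd74 as closely. The rank on raw totals was not computed. All features share the scaling factor of their library, so any such correlation depends on the scaling.

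For RT1-Ba the adjusted permutation tests did not pass on either scale. On TMM-scaled values its r with Cd74 was 0.75 (two-sided exact permutation p = 0.0806, adjusted p = 0.121), with a rho of 0.71 (exact permutation p = 0.136, adjusted p = 0.136), and r was 0.93 without vehicle replicate 1 and afatinib replicate 2. The r of RT1-Da with RT1-Ba was 0.56 (two-sided exact permutation p = 0.24, adjusted p = 0.24), with a rho of 0.71 (exact permutation p = 0.136, adjusted p = 0.136), and r was 0.50 without afatinib replicates 1 and 2. On CPM of the raw totals, rho was 0.89 for RT1-Ba with Cd74 (exact permutation p = 0.0333, adjusted p = 0.0999) and 0.37 for RT1-Da with RT1-Ba (exact permutation p = 0.497, adjusted p = 0.497). There, r was 0.71 for RT1-Ba with Cd74 (two-sided exact permutation p = 0.115, adjusted p = 0.173), and 0.99 without vehicle replicate 1 and afatinib replicate 2. For RT1-Da with RT1-Ba it was 0.54 (two-sided exact permutation p = 0.292, adjusted p = 0.292). Which of RT1-Da and RT1-Ba followed Cd74 more closely by rank thus depended on the scaling. By r with RT1-Ba on TMM-scaled values, 10.7% of the features, RT1-Da itself included, stood as high as RT1-Da. As deviations of TMM-scaled values from the group means, the correlations were 0.98 for RT1-Da with Cd74, 0.92 for RT1-Ba with Cd74 and 0.87 for RT1-Da with RT1-Ba, a description without a test.

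**Figure D4:**
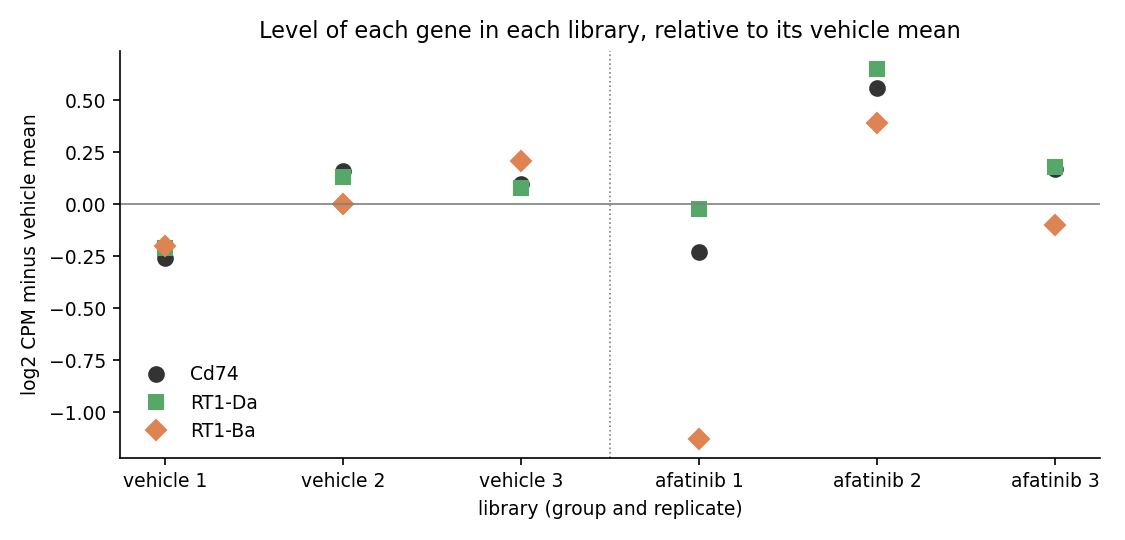
Log2 CPM minus the vehicle mean of the gene (y axis) for the 3 genes in each of the 6 libraries (x axis). In afatinib replicate 1, RT1-Ba stands at -1.13 while Cd74 stands at -0.23 and RT1-Da at -0.02.

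Ratios of counts within a library do not depend on the scaling of libraries, and each was compared between the groups. RT1-Da had 34.8, 32.6 and 33.0 reads per 100 reads of Cd74 in vehicle replicates 1, 2 and 3, and 38.6, 35.7 and 33.6 in afatinib replicates 1, 2 and 3. Afatinib replicates 1 and 2 lay above every vehicle library and afatinib replicate 3 inside the vehicle range. The log2 ratio was higher after afatinib by 0.10, from -1.58 ± 0.05 to -1.48 ± 0.10 (SD, n = 3 each; two-sided exact permutation p = 0.2, adjusted p = 0.2 over 3 ratios). Without afatinib replicate 3 the difference was 0.15, and the remaining afatinib libraries lay above all vehicle libraries. That library was left out because it resembled vehicle, which favours such a separation. How many other features separate from Cd74 in this way without it was not counted. Over all 6 libraries, the invariant chain and this alpha chain thus stayed between 32.6 and 38.6 reads per 100.

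The ratio of RT1-Ba to Cd74 was 3.79, 3.24 and 3.93 reads per 100 in vehicle replicates 1, 2 and 3, and 1.94, 3.25 and 3.02 in afatinib replicates 1, 2 and 3. Afatinib replicate 1 was far below the other libraries, and afatinib replicate 2 was level with vehicle replicate 2. On the log2 scale, the ratio was -4.78 ± 0.15 in vehicle and -5.22 ± 0.40 in afatinib (SD, n = 3 each), a difference of -0.45 (two-sided exact permutation p = 0.2, adjusted p = 0.2). The difference was -0.22 without afatinib replicate 1, -0.59 without afatinib replicate 2 and -0.54 without afatinib replicate 3. With all 6 libraries the groups overlapped for each ratio to Cd74, where 15.1% of the other features had log2 ratios to Cd74 that did not overlap between the groups.

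The balance between the alpha chains was the comparison among the 3 genes in which the groups did not overlap. RT1-Da had 9.17, 10.05 and 8.40 reads per read of RT1-Ba in vehicle replicates 1, 2 and 3. It had 19.9, 10.99 and 11.1 in afatinib replicates 1, 2 and 3, so every afatinib library lay above every vehicle library. The log2 ratio was 3.20 ± 0.13 in vehicle and 3.75 ± 0.49 in afatinib (SD, n = 3 each). The difference was 0.55, a 1.46-fold higher ratio (two-sided exact permutation p = 0.1, the smallest value that 3 against 3 libraries allow; adjusted p = 0.2 over 3 ratios). This permutation test cannot reach 0.05 with 3 libraries a group. Of the other features, 6.18% had a log2 ratio to RT1-Ba that was higher in every afatinib library, and 7.71% did not overlap in either direction. The difference was 0.27 without afatinib replicate 1 and 0.69 without afatinib replicate 3. The nearest libraries were vehicle replicate 2 at a log2 ratio of 3.33 and afatinib replicate 2 at 3.46, with counting errors of 0.065 and 0.053. Reads of RT1 genes can be divided among related genes and alleles, and neither the strain nor the handling of such reads is known from the labels. Their part in this ratio was not tested.

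**Figure D5:**
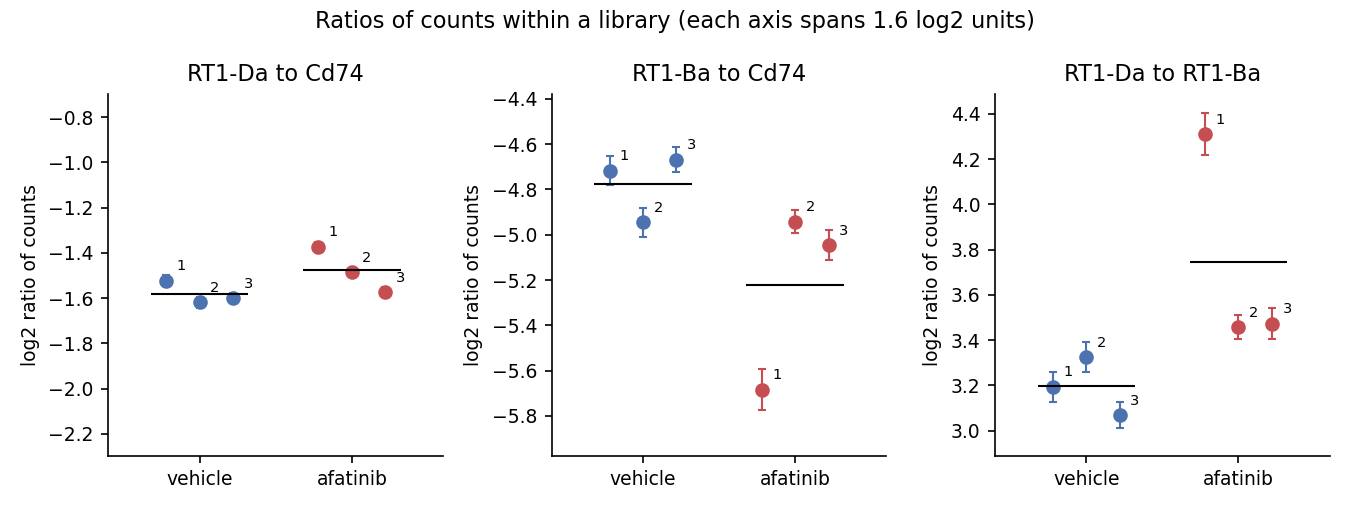
Log2 ratios of counts between the genes (y axes, each spanning 1.6 log2 units) in vehicle and afatinib libraries, with replicate numbers, group means as lines and counting standard errors as bars. For RT1-Da to RT1-Ba all afatinib libraries lie above all vehicle libraries, and afatinib replicate 1 is farthest, at 4.31.

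Summed over the 3 genes, class II reads made up, without TMM scaling, 0.104%, 0.129% and 0.137% of the counts of vehicle replicates 1, 2 and 3. They made up 0.125%, 0.213% and 0.132% in afatinib replicates 1, 2 and 3. Afatinib replicates 1 and 3 lay within the vehicle range and afatinib replicate 2 above it. On TMM-scaled sizes, the sum in afatinib replicate 3 was 1442 CPM, just above the highest vehicle library at 1427 CPM. The sum is mostly Cd74 and follows its order closely, so it adds no separate measurement.

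Other features with a like pattern were sought by their r with the mean profile of the 3 genes over the 6 libraries, among 11663 other features with a mean of at least 5 CPM. Of these, 16 (0.137%) had an r of at least 0.9, a description over 6 libraries without a test. The 3 genes, which make up the profile, had r of 0.985 (Cd74), 0.917 (RT1-Da) and 0.843 (RT1-Ba) with it. RT1-Ba thus fell short of 0.9. The highest of the other features were ENSRNOG00000022764 (r = 0.982) and ENSRNOG00000020431 (r = 0.971), for which no symbol is given in the sources used here. ENSRNOG00000022764 was read at 10.1, 11.9 and 11.6 CPM in vehicle replicates 1, 2 and 3 and at 9.21, 13.7 and 11.2 CPM in afatinib replicates 1, 2 and 3. ENSRNOG00000020431 was read at 9.87, 11.4 and 13.4 CPM and at 8.38, 17.2 and 11.8 CPM, in the same order. Each was highest in afatinib replicate 2, like the class II genes, which follows largely from their choice by r. Neither passed (log2 fold changes of 0.02 and 0.11, adjusted p = 0.958 and 0.842, edgeR). The most opposed patterns were those of ENSRNOG00000011020 (r = -0.946) and ENSRNOG00000038212 (r = -0.941). ENSRNOG00000011020 was read at 103, 94.0 and 93.3 CPM in vehicle and at 107, 90.1 and 95.2 CPM in afatinib replicates 1, 2 and 3. ENSRNOG00000038212 was read at 34.3, 30.0 and 29.9 CPM and at 36.9, 28.3 and 30.5 CPM. Both were lowest in afatinib replicate 2 and highest in afatinib replicate 1, which again follows largely from their choice by r.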

How the data were processed

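Each library has its own table of raw read counts as the authors deposited them, with whole-number values throughout. HISAT2 2.0.5, featureCounts 1.5.0-p3 and DESeq2 1.16.1 are named in the submitters' processing notes. For their settings, the genome build and the annotation: not given in the sources used here. Groups and replicate numbers follow the titles. The column headings number the afatinib libraries differently.

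No library repeated another (chi-square per degree of freedom of at least 28.2 between any pair). Counts were filtered with filterByExpr, scaled by TMM and compared with edgeR 4.0.16 (R 4.3.3) by its robust quasi-likelihood test in a model of group alone, with Benjamini-Hochberg adjustment over 15497 features. Standard errors are the log2 fold change divided by the root of the F statistic, and intervals come from limma 3.58.1 (voom). DESeq2 1.42.0, other scalings and filters, a replicate block and each library left out were alternatives. Log2 CPM used a prior count of 2, and ratios had 1 count added. Ratios and correlations were compared by exact permutation tests. The fits were also run on simulated data, with limits set only on the direction and size of known changes, not on false calls. Counting intervals cover counting error only. The reference table held an Ensembl identifier for 0 of 47357 genes, so the 87 symbols of the gene lists could not be used and features outside the 3 genes are named by identifier: the highest 2 and lowest 2 by r with the mean profile of the 3 genes. The genes, lists and tests were chosen with earlier results of these data known.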

Additional observations from a re-analysis of the deposited data

How the results depend on the processing

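The 3 genes passed the adjusted threshold in 0 fits, over every scaling, filter, tool and left-out library that was run. Leaving out 1 library moved the log2 fold change in edgeR from -0.02 to 0.37 for Cd74, from 0.08 to 0.43 for RT1-Da and from -0.53 to 0.16 for RT1-Ba, and in DESeq2 from -0.01 to 0.37, from 0.09 to 0.44 and from -0.52 to 0.17. The sign turned for Cd74 without afatinib replicate 2 (-0.02 in edgeR, -0.01 in DESeq2) and for RT1-Ba without afatinib replicate 1 (0.16 and 0.17). The cause was not tested. With total counts in place of TMM, the median of all features moved to 0.12, the 3 genes stood at 0.32, 0.42 and -0.04, and the correlation of RT1-Da with Cd74 no longer passed (adjusted exact permutation p = 0.0708 for r, 0.262 for rho). Differences in the log2 ratios ran from 0.05 to 0.15 (RT1-Da to Cd74), from -0.59 to -0.22 (RT1-Ba to Cd74) and from 0.27 to 0.70 (RT1-Da to RT1-Ba) with 1 library left out. Calls among all features numbered 0 in edgeR (3023 at an unadjusted p under 0.05), 0 in limma voom (2899) and 1032 in DESeq2. With 1 library left out they ran from 0 to 1627 in edgeR. In DESeq2 they numbered 399, 490 and 744 without vehicle replicates 1, 2 and 3, and 336, 270 and 4085 without afatinib replicates 1, 2 and 3. In both tools the count was highest without afatinib replicate 3. That library was singled out from these same values for its likeness to vehicle, which favours more calls without it. The deviations of same-numbered libraries from their group means had correlations of 0.20, -0.21 and -0.39. With 3 libraries a group such values constrain each other, so they cannot show whether the numbers mark pairs. The labels name no pairs, and the main model took none. With the replicate block the log2 fold changes were 0.17, 0.27 and -0.28 for Cd74, RT1-Da and RT1-Ba, with 0 calls among all features.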
